A study of Homo sapiens with 6 samples.

Results

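Transforming growth factor beta (TGF-beta) signalling was examined through 10 of the 14959 genes with an expression value in UM-SCC1 cells, an established cell line from a human head and neck squamous cell carcinoma. The 10 genes were taken by name, as components of the pathway, with earlier results of these data known. They are the ligands TGFB1 and TGFB2, the receptors TGFBR1, TGFBR2 and TGFBR3, the signal transducers SMAD2, SMAD3 and SMAD4, the inhibitory SMAD7, and TGFBI, an extracellular matrix protein named for its induction by TGF-beta. Total RNA of 3 cultures transfected with miR-204-5p mimics, synthetic duplexes that raise the amount of this microRNA, was sequenced 48 hours after transfection and compared with that of 3 cultures given control mimics. The labels describe the 3 cultures of each group as independent experiments. The model is 1 cell line with an excess of 1 microRNA, and the amount of miR-204-5p reached in the cells was not measured in the data used here. The question was which RNAs of the pathway differed with the mimics.

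TGF-beta ligands are made as latent complexes that are held in the matrix and must be activated. An active ligand brings together TGFBR2, a kinase that is active by itself, and TGFBR1, which TGFBR2 phosphorylates, and TGFBR3 (betaglycan) is a co-receptor that binds the ligands, TGFB2 among them. TGFBR1 then phosphorylates SMAD2 and SMAD3, which join SMAD4 and act in the nucleus on target genes, while SMAD7 blocks the receptor. In epithelial cells the pathway is known for arresting growth and, in carcinomas, for driving epithelial to mesenchymal transition.

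With miR-204-5p mimics, TGFB2 RNA was 7.19 times as high as with control mimics, and TGFBR2 RNA fell to 0.350 of the control level. TGFBR1 and TGFBI also fell, TGFBR3 and SMAD3 rose, and TGFB1, SMAD2, SMAD4 and SMAD7 did not pass the test. Thus 6 of the 10 genes passed limma's test at an adjusted p of 0.05, where 40.8% of all genes tested did. The 3 members that fell stand beside 16.8% of all genes called lower, and the 3 that rose beside 23.9% called higher. The 3 libraries of one group lay wholly to one side of the other for 6 members, and for 53.6% of all genes. The median log2 difference, mimics minus control, was −0.09 over the 10 genes and 0.03 over all genes. The count of members that changed is thus not far from the background. By the size of the change, TGFB2 ranked 21st and TGFBR2 56th of the 14959 genes.

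Expression was given as FPKM, fragments per kilobase of transcript, scaled to the mapped fragments of the library, so levels are per length. Comparisons of level between genes are limited for SMAD2, whose listed transcript is very long. They are also limited for TGFB1, TGFBR1, SMAD3 and SMAD4, whose listed transcripts are short. Their differences between groups may also be those of the listed transcript alone, since the sources used here do not give which the FPKM describes. A log2 fold change is the difference of mean log2(FPKM + 1), mimics minus control, in which low genes appear to change less than their FPKM did. It is given with its standard error (SE) and limma's p-value adjusted over all genes, beside the ratio of the mean FPKM. Errors are standard deviations (SD) over 3 libraries. The table holds no counts. From the steps between low values the libraries were inferred to hold 13100000 to 16400000 fragments. Of the low values, 29.4 to 33.0% were then whole numbers of fragments within 0.02. The median share over all steps tried was 3.09 to 3.32%. Spearman correlations were 0.9899 to 0.9908 between libraries of a group and 0.9733 to 0.9756 between groups, and no library stood apart. All 9 squamous epithelial markers were in the table, with summed levels of 652 to 740 FPKM with mimics and 839 to 860 FPKM with control mimics. The abundant keratins made up most of these sums, and the markers did not move as one: 5 were called lower, with TP63 at −1.01 on the log2 scale, and KRT6A (0.81), CDH1 (0.39) and ITGB4 (0.30) were called higher. Of the markers of cells that a pure line should lack, COL3A1 and DCN were not among the genes listed, CD3E, PTPRC and all 3 endothelial markers were below 1 FPKM, and the sums of the others are given beside the results they move with.

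The sequence of miR-204-5p is shown because its seed, bases 2 to 8, is what pairs with target RNAs. In RefSeq on GRCh38.p14 it lies at chr9:70810031-70810052 on the minus strand, and the seed is in capitals. The mature miR-211-5p, at chr15:31065095-31065116 on the minus strand, carries the same seed.
hsa-miR-204-5p: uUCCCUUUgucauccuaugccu
hsa-miR-211-5p: uUCCCUUUgucauccuucgccu

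Letters that pair with this seed were searched on the transcript strand of every gene, in its longest 3′UTR (GENCODE 29, GRCh38). The 3 kinds of match were AAAGGGAA (8mer), AAAGGGA (7mer-m8) and AAGGGAA (7mer-A1), and each position was counted once under the longest match. An 8mer was the best match in 8.60% of 14664 genes, a 7mer-m8 in 9.83% and a 7mer-A1 in 8.66%, and 72.9% held none. Among the 10 genes, 5 held a match: the receptors TGFBR1 and TGFBR2 and the transducers SMAD2 and SMAD4 each held an 8mer, and SMAD3 held 7mer-A1 matches alone. The 5 without one were both ligands, TGFBR3, SMAD7 and TGFBI. The sites below are the 8mers of these 4 genes and the 2 matches of SMAD3, each with its flanks, on the strand of the gene and with the matching letters in capitals.
TGFBR2: ttttcactactatacatAAAGGGAAagttt
TGFBR1: acagactaatttttctaAAAGGGAAagtct
SMAD4: cctttcagtgcattatcAAAGGGAAtcctt
SMAD2: tacttagacttgtaggcAAAGGGAAattca
SMAD3, nearer the stop codon: agaagcaaattcaccagAAGGGAAacatc
SMAD3, farther from the stop codon: ctgctttattccaggtgAAGGGAAggaag

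The TGFBR2 stretch is chr3:30693906-30693935 on the plus strand, in exon 8, and the 8mer begins 2324 bases after the stop codon in a 3′UTR of 2543 bases. The TGFBR1 stretch is chr9:99150314-99150343 on the plus strand, in exon 9, and its 8mer begins 1026 bases into a 3′UTR of 4887 bases. That of SMAD4 is chr18:51081330-51081359 on the plus strand, in exon 12, at base 2880 of 6578, and a 7mer-A1 follows at base 6237. The SMAD2 stretch, chr18:47829932-47829961 on the minus strand, is at base 11883 of a 3′UTR of 32870 bases, the longest of the 10, which holds 6 matches in all. The matches of SMAD3 are at bases 1170 and 1594 of 4659, within chr15:67191689-67191717 and chr15:67192113-67192141 on the plus strand. The transcripts that the table lists for TGFBR2 and SMAD2 carry their 8mer too, while those listed for TGFBR1, SMAD3 and SMAD4 have no annotated 3′UTR. Of the protein-coding transcripts with a 3′UTR, 2 of 2 held a match for TGFBR2 and 3 of 4 for TGFBR1. The counts were 2 of 3 for SMAD4, 2 of 5 for SMAD2 and 1 of 6 for SMAD3. A match is a description of letters, and binding was not measured.

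**Figure D1:**
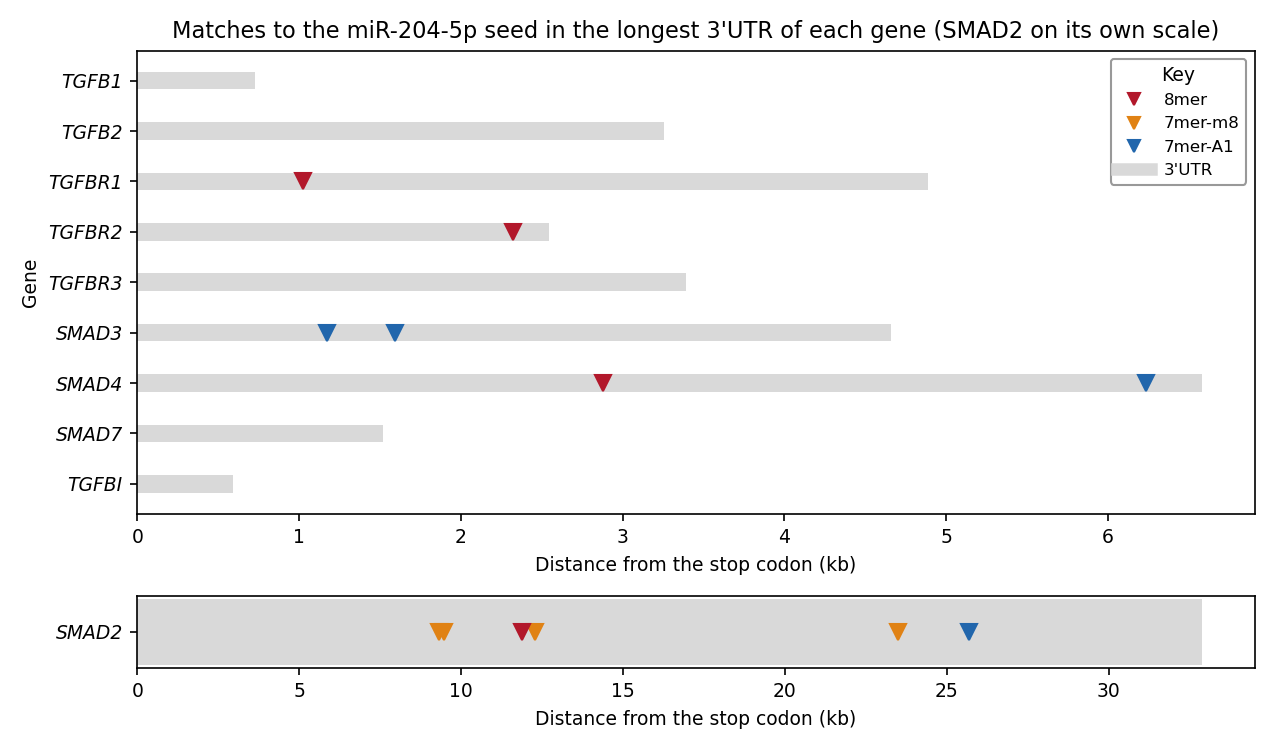
Matches to the miR-204-5p seed along the longest annotated 3′UTR of each of the 10 genes, plotted by distance from the stop codon in kilobases, with the kind of match shown by colour and SMAD2 drawn on a scale of its own. TGFBR1, TGFBR2, SMAD2 and SMAD4 hold an 8mer, SMAD3 holds 7mer-A1 matches only, and the other 5 genes hold none.

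TGFB1 encodes the most widely expressed of the TGF-beta ligands, on chromosome 19 of hg38 (ENSG00000105329, listed transcript 41301587 to 41342030, minus strand). Its level was 22.1, 21.8 and 24.9 FPKM in the 3 libraries with mimics and 26.1, 24.5 and 24.4 FPKM in the 3 with control mimics. The third mimics library lay within the range of the controls, so the groups overlapped. The log2 fold change was −0.12 (95% interval −0.27 to 0.03, SE 0.0611, limma adjusted p = 0.165), and without mimics replicate 3 it was −0.18 with a limma adjusted p of 0.0370. Exons of TGFB1 overlap those of HNRNPUL1 on the opposite strand, and whether reads were assigned by strand is not given in the sources used here.

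TGFB2 encodes the second ligand of the family, and lies on chromosome 1 (ENSG00000092969, 218346235 to 218444619, plus strand). Its level was 4.47, 4.40 and 4.26 FPKM with mimics and 0.669, 0.516 and 0.640 FPKM with control mimics. Every mimics library lay above every control library, by 6.36 to 8.67 times. The means were 4.38 ± 0.109 FPKM and 0.608 ± 0.0816 FPKM (SD, n = 3 each). The log2 fold change was 1.74 (95% interval 1.59 to 1.89, SE 0.0625, limma adjusted p = 2.95e-05). Because the control level was below 1 FPKM, the size depended on the pseudocount, and with 0.1 in place of 1 it was 2.67. In the same control cultures TGFB1 stood at 24.98 FPKM and in the mimics cultures at 22.9 FPKM, above TGFB2 in both groups, although its level is given for a listed transcript of 559 bases whose use as the length is uncertain. A difference in RNA per cell cannot be told apart here from a change in the share of cells that carry the RNA.

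TGFBR2, the type II receptor, lies on chromosome 3 (ENSG00000163513, 30606502 to 30694134, plus strand). Its level was 8.24, 8.66 and 7.42 FPKM with mimics and 23.7, 23.4 and 22.4 FPKM with control mimics. All 3 mimics libraries lay far below the controls, and the highest of them did not come near the lowest control. The log2 fold change was −1.41 (95% interval −1.56 to −1.26, SE 0.0616, limma adjusted p = 4.70e-05), the 25th lowest of all genes. The summed level of 4 leukocyte markers was also lower with mimics, at 21.7 to 24.4 FPKM against 26.7 to 27.8 FPKM, from CD14 (12.4 against 16.3 FPKM) and CD68 (9.60 against 10.8 FPKM). PTPRC (0.293 against 0.138 FPKM) and CD3E (0.404 against 0.227 FPKM), the defining markers, were not lower. The part of these markers in this result was not tested.

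TGFBR1, the type I receptor kinase that signals to the SMADs, lies on chromosome 9 (ENSG00000106799, listed transcript 99104038 to 99132726, plus strand). Its level was 2.39, 2.49 and 2.70 FPKM with mimics and 3.55, 3.75 and 4.05 FPKM with control mimics, with no overlap. The mean was 2.53 ± 0.156 FPKM against 3.78 ± 0.253 FPKM (SD, n = 3 each), a ratio of 0.667. On the log2 scale the difference was −0.44 (95% interval −0.61 to −0.27, SE 0.0691, limma adjusted p = 0.00322). By these values both signalling receptors fell, and TGFBR2 by the larger factor, although those of TGFBR1 may be of its short listed transcript alone.

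TGFBR3, the co-receptor, lies on chromosome 1 (ENSG00000069702, 91680343 to 91862046, minus strand) and moved the other way. Its level was 0.652, 0.912 and 0.780 FPKM with mimics and 0.397, 0.469 and 0.361 FPKM with control mimics. The groups did not overlap, but every value was below 1 FPKM. The log2 fold change was 0.34 (95% interval 0.18 to 0.50, SE 0.0669, limma adjusted p = 0.00816), and 0.79 with a pseudocount of 0.1, and the ratio of means was 1.91. The transcript listed for it is annotated as a target of nonsense-mediated decay. The summed level of 4 fibroblast markers, COL1A1, COL1A2, LUM and PDGFRB, was also higher with mimics. It was 9.81 to 11.6 FPKM against 8.58 to 9.41 FPKM, most of it from COL1A1 (limma adjusted p = 0.149). COL1A2 was called higher, at 0.605 against 0.322 FPKM (limma adjusted p = 0.00245). So was PDGFRB, at 0.359 against 0.177 FPKM (limma adjusted p = 0.00628), and LUM was not called. The sum of 3 endothelial markers was 0.590 to 0.767 FPKM against 0.443 to 0.502 FPKM. Of these, VWF alone was called, higher with mimics at 0.457 against 0.299 FPKM (limma adjusted p = 0.0234). The part of these markers in the results for TGFBR3, TGFB2 and SMAD3 was not tested.

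**Figure D2:**
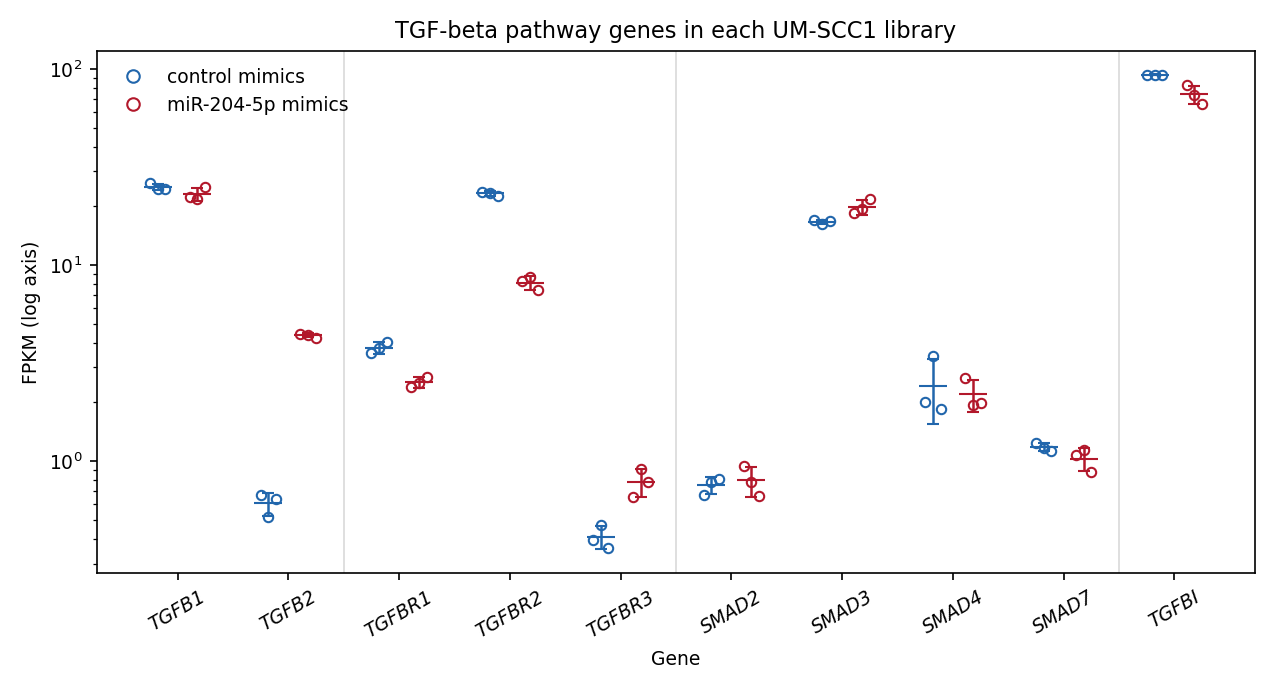
Level of each of the 10 genes in FPKM (log axis) in every library, with the mean and SD of the 3 miR-204-5p mimics libraries and the 3 control mimics libraries. TGFB2 rises from 0.608 to 4.38 FPKM, TGFBR2 falls from 23.2 to 8.11 FPKM, and the groups overlap for TGFB1, SMAD2, SMAD4 and SMAD7.

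SMAD2, one of the transducers that TGFBR1 phosphorylates, lies on chromosome 18 (ENSG00000175387, 47808957 to 47930559, minus strand). It was at 0.942, 0.784 and 0.662 FPKM with mimics and 0.670, 0.782 and 0.808 FPKM with control mimics. The groups overlapped, and the log2 fold change was 0.03 (95% interval −0.14 to 0.20, limma adjusted p = 0.751). Its sign was not stable, and it was −0.04 after quantile normalization. The transcript listed for SMAD2 has 34526 bases and is almost wholly 3′UTR. Whether its FPKM used that length is not given in the sources used here. The level of SMAD2 against the other genes is thus uncertain.

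SMAD3, the other receptor-regulated SMAD of the pathway, lies on chromosome 15 (ENSG00000166949, listed transcript 67063763 to 67166838, plus strand). Its level was 18.4, 19.3 and 21.6 FPKM with mimics and 16.9, 16.2 and 16.7 FPKM with control mimics, with every mimics library above every control. The mean of 19.8 ± 1.67 FPKM compared with 16.6 ± 0.346 FPKM (SD, n = 3 each), a ratio of 1.19. On the log2 scale it rose by 0.23 (95% interval 0.08 to 0.39, SE 0.0637, limma adjusted p = 0.0262). This call was lost in 7 of 12 other ways of fitting the data, with limma adjusted p values of 0.0501 to 0.0793, among them the fits without mimics replicate 2 and without each of control replicates 1, 2 and 3.

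SMAD4, the partner shared by all signalling SMADs, lies on chromosome 18 (ENSG00000141646, listed transcript 51028394 to 51048816, plus strand). It was at 2.67, 1.93 and 1.97 FPKM with mimics and 1.99, 3.44 and 1.84 FPKM with control mimics. The groups overlapped, and control replicate 2 was higher than the other 5 libraries. The log2 fold change was −0.08 (95% interval −0.53 to 0.37, limma adjusted p = 0.773), and without control replicate 2 it was 0.12. The interval is the widest of the 10.

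SMAD7 (ENSG00000101665), the inhibitory SMAD that is itself induced by TGF-beta, was at 1.07, 1.14 and 0.875 FPKM with mimics and 1.24, 1.17 and 1.12 FPKM with control mimics. The groups overlapped, and the log2 fold change of −0.10 (95% interval −0.26 to 0.05, limma adjusted p = 0.255) did not pass the test.

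TGFBI, the matrix protein, lies on chromosome 5 (ENSG00000120708, 136028895 to 136063817, plus strand) and had the highest level of the 10 in every library. It was at 82.7, 73.5 and 66.5 FPKM with mimics and 93.6, 93.5 and 92.9 FPKM with control mimics. All mimics libraries lay below the controls, and they were spread more widely, with an SD of 8.13 FPKM against 0.365 FPKM. Its log2 fold change was −0.33 (95% interval −0.51 to −0.15, SE 0.0759, limma adjusted p = 0.0138), and the ratio of means was 0.795.

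**Figure D3:**
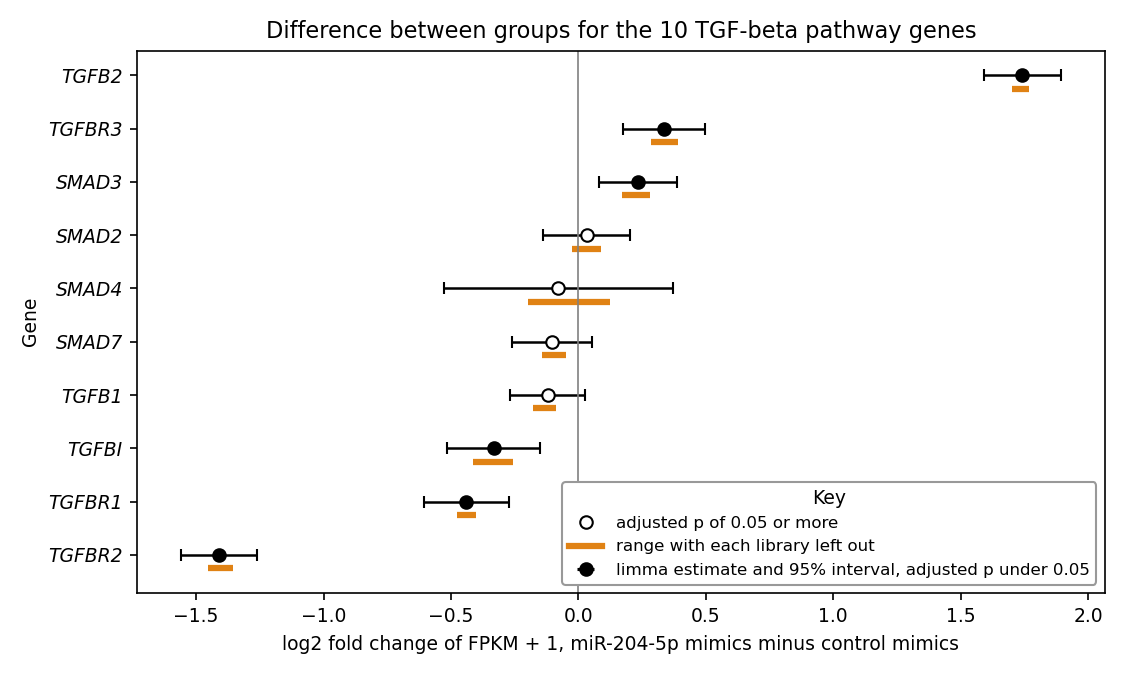
Difference of mean log2(FPKM + 1), mimics minus control, for each of the 10 genes, with its 95% interval from limma, filled points for genes past the threshold, and orange bars for the range when each library was left out. TGFB2 at 1.74 and TGFBR2 at −1.41 lie outside the range of the other 8, which runs from −0.44 to 0.34.

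By level with control mimics the order was TGFBI, TGFB1, TGFBR2, SMAD3, TGFBR1, SMAD4, SMAD7, SMAD2, TGFB2 and TGFBR3. The libraries of neighbours in this order did not overlap, and with mimics they overlapped for TGFBR1 and SMAD4, for SMAD7 and SMAD2, and for SMAD2 and TGFBR3. With mimics TGFB2 moved from 9th to 5th place and TGFBR2 passed below SMAD3. The transcripts listed for TGFBR1, SMAD4, TGFB1 and SMAD3 are short, with 533, 779, 559 and 568 bases, although their genes have much longer ones. At that length and the inferred depth, counting would give TGFBR1 an SD over the mean of 0.223 with mimics and 0.183 with control mimics. The observed SD over the mean was less, at 0.0620 and 0.0668. For SMAD3 (0.0209 against 0.0846) and TGFB1 (0.0391 against 0.0696) it was less with control mimics alone, and for SMAD4 it was 0.365 against 0.191 with control mimics, above counting error. The same comparison was made for genes that would have 10 to 50 fragments at the listed length. Of these, 348 had a listed transcript under 1000 bases and a longest one at least 3 times as long. Their median spread was 0.455 times the counting error, against 1.053 times in 236 genes with 1 annotated transcript. TGFBR1 and SMAD4 fall in that range of fragments, and TGFB1 and SMAD3 do not. Which length the FPKM of these 4 genes used is not given in the sources used here, so their levels against the other genes are uncertain. Their ratios between groups do not use the length. Whether their FPKM is of the gene or of the listed transcript is not given either. If it is of the transcript, the ratios describe that transcript and not the whole gene.

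The 3 genes whose profile over the 6 libraries was nearest to that of TGFB2, by the Euclidean distance of log2(FPKM + 1) after centring each gene, were KIAA0040 at 0.142, CYR61 at 0.169 and ANKRD13B at 0.210. With mimics and control mimics their mean levels were 20.1 and 5.01 FPKM for KIAA0040, 25.3 and 7.32 FPKM for CYR61 (CCN1), a secreted matricellular protein, and 12.4 and 2.72 FPKM for ANKRD13B. These genes were picked for their likeness to TGFB2, so their difference between groups follows from the choice and was not tested.

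The seed matches were set beside the changes over all genes. Among genes with a mean of at least 1 FPKM, the median log2 fold change was −0.14 in the 961 genes whose longest 3′UTR has an 8mer. It was −0.06 where the best match was a 7mer-m8 (1133 genes), −0.02 where it was a 7mer-A1 (992 genes) and 0.08 where there was none (8322 genes). Genes with an 8mer also had longer 3′UTRs, with a median of 3125 bases against 947 bases for genes with none, and the part of length was not tested. Of the 4 members with an 8mer, TGFBR2 (−1.41) and TGFBR1 (−0.44) lay below the lower quartile of that class, −0.41, and SMAD2 (0.03) and SMAD4 (−0.08) lay inside its quartiles. SMAD3, with its pair of 7mer-A1 matches, was at 0.23, above the upper quartile of 0.20 for that class. Of the members without a match, TGFB2 was at 1.74 and TGFBI at −0.33, so that members moved both ways without one.

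**Figure D4:**
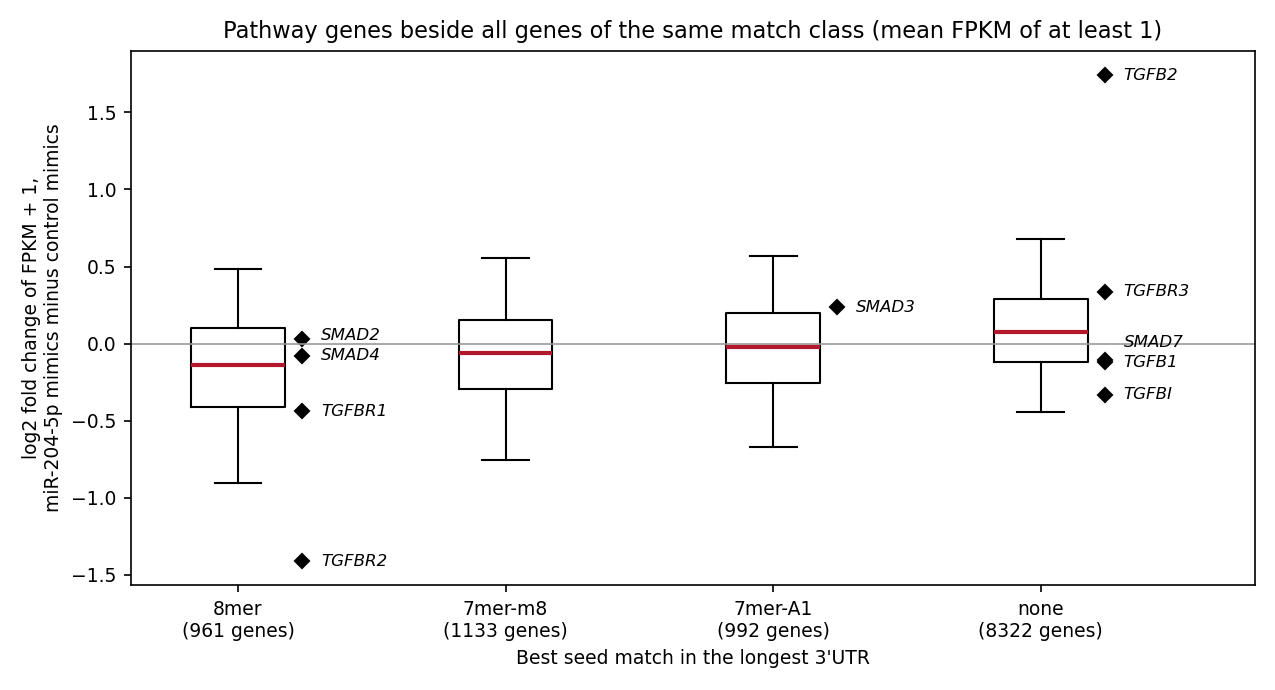
Log2 fold change, mimics minus control, of all genes with a mean of at least 1 FPKM, grouped by the best seed match in the longest 3′UTR (boxes give the median and quartiles, whiskers the 5th and 95th percentiles), with the 10 genes marked, SMAD2 and TGFBR3 among them although their means are below 1 FPKM. The class medians run from −0.14 for an 8mer to 0.08 for none, and TGFBR2 and TGFBR1 lie below the 8mer box.

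The wider superfamily was described through 7 lists, in which SKIL, PMEPA1, LTBP2, ITGB6, FSTL3 and SMAD6 each stand in more than 1. Each count of called genes stands beside the background of 40.8% called, 16.8% lower and 23.9% higher over all genes. Of 11 listed genes for storage and activation of latent TGF-beta, 6 passed the test, 4 lower and 2 higher, and their median log2 fold change was −0.02. The share called was 54.5%, and the list as a whole was not tested. LTBP4, which tethers latent ligand to the matrix, rose from 4.56 to 8.95 FPKM (0.83 on the log2 scale, limma adjusted p = 0.00107). THBS1, an activator of latent TGF-beta, rose from 6.85 to 11.5 FPKM (0.67, limma adjusted p = 0.000435). An 8mer lies in the longest 3′UTR of THBS1, but the transcripts listed for LTBP4 and THBS1 have only 723 and 582 bases. Whether their FPKM is of the gene or of that transcript is not given in the sources used here. FURIN, the protease that cuts the precursor, fell from 21.7 to 15.4 FPKM (−0.47, limma adjusted p = 0.00236), and ITGAV, a subunit of the activating integrins, from 20.2 to 14.8 FPKM (−0.42, limma adjusted p = 0.00122).

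Among the activin and BMP ligands and antagonists, 2 of the 9 genes in the table passed, 1 each way, with a median of 0.02. The share of 22.2% is below the background of 40.8%. Only 4 of the 9 reached a mean of 1 FPKM, and both called genes were among these. Genes far below 1 FPKM can hardly move on this log2 scale, which limits both the share and the median. GDF11 fell from 3.73 to 2.68 FPKM (−0.36, limma adjusted p = 0.00678). GDF15, with a listed transcript of 562 bases, was at 16.9 FPKM with mimics and 13.5 FPKM with control mimics. It was called at a limma adjusted p of 0.0424, and that call held in 4 of 12 other fits. The call was lost, among other fits, without mimics replicates 2 or 3 and without control replicates 2 or 3. Of 9 other receptors of the superfamily, 2 passed and both fell, with a median of 0.03 over the list and the same share of 22.2%. Without mimics replicate 1 the count was 4. BMPR1A, a type I receptor for BMP, fell from 4.42 to 2.81 FPKM (−0.51, limma adjusted p = 0.00342), and BMPR2, its type II partner, from 5.49 to 4.0 FPKM (−0.38, limma adjusted p = 0.00840).

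Of 24 other SMADs and SMAD regulators, 6 passed, 4 lower and 2 higher, with a median of −0.01, so that the share called, 25%, is below the background of 40.8%. SKI, a repressor that binds SMADs, was at 3.78, 4.49 and 4.69 FPKM with mimics and 11.2, 11.1 and 11.1 FPKM with control mimics. Its groups were far apart, and the difference was −1.20 on the log2 scale (limma adjusted p = 0.000115). A 7mer-m8 is the best match in the 3′UTR of SKI. CREBBP and EP300, acetyltransferases that serve SMADs as coactivators, fell by 0.59 and 0.45 on the log2 scale (limma adjusted p = 0.00136 and 0.00421). NEDD4L, a ubiquitin ligase for activated SMADs, rose from 1.94 to 3.23 FPKM (0.52, limma adjusted p = 0.00119).

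Of 12 genes of the SMAD-independent arm, 4 passed, 2 each way, with a median of −0.08. The share of 33.3% is below the background of 40.8%. The count was 2 without mimics replicate 2 or without control replicate 3. It was 6 after scaling to equal medians, and 5 with equal sums, quantile normalization or a filter at a mean of 1 FPKM. Its place against the background thus depended on the processing. PARD6A, the polarity protein that TGFBR2 phosphorylates, rose from 4.87 to 8.62 FPKM (0.71, limma adjusted p = 0.000941). SHC1, an adaptor towards the MAP kinase pathway, fell from 36.7 to 26.1 FPKM (−0.48, limma adjusted p = 0.000303). TRAF6 (0.34, limma adjusted p = 0.0299) and RHOA (−0.17, limma adjusted p = 0.0242) were called in 6 and 8 of 12 other fits. The TRAF6 call was lost without mimics replicates 2 or 3 and without control replicates 1 or 3, and the RHOA call without mimics replicates 1 or 2 and without control replicates 2 or 3.

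Among 24 genes known to be induced by TGF-beta, 14 passed, 11 lower and 3 higher, and the median log2 fold change was −0.24 against 0.03 over all genes. The counts stand beside a background of 16.8% lower and 23.9% higher. CTGF (CCN2), a matricellular protein and early target, went against the majority: it was at 3.15, 3.59 and 3.30 FPKM with mimics and 0.638, 0.883 and 0.522 FPKM with control mimics, with no overlap. The difference was 1.38 on the log2 scale (limma adjusted p = 0.000148), and 2.17 with a pseudocount of 0.1.

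HMGA2, a chromatin protein of mesenchymal transition, was at 0.954, 2.64 and 2.77 FPKM with mimics and 6.09, 5.69 and 5.77 FPKM with control mimics. Its mimics libraries were all lower, the first most of all, and the difference was −1.20 on the log2 scale (limma adjusted p = 0.00948). The 3′UTR of HMGA2 has an 8mer. COL4A1, a basement membrane collagen, fell from 3.15 to 1.38 FPKM (−0.80, limma adjusted p = 0.000320). CDKN2B, the inhibitor of the cell cycle that TGF-beta induces, fell from 12.95 to 8.19 FPKM (−0.60, limma adjusted p = 0.000829). In their longest 3′UTRs, GDF11, BMPR1A and SHC1, all lower, also held an 8mer. BMPR2 and CDKN2B, both lower, held a 7mer-A1 at best, and NEDD4L, which rose, a 7mer-m8. Apart from these and THBS1, SKI and HMGA2, the list genes named with values held no match. Of 5 genes induced by BMP, 2 passed, a share of 40.0% beside the background of 40.8%, and the median of the list was −0.18. Both called genes are regulators that hold back differentiation, and both fell. ID3 went from 58.2 to 43.8 FPKM (−0.40, limma adjusted p = 0.00692) and ID1 from 559 to 461 FPKM (−0.28, limma adjusted p = 0.00464).

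**Figure D5:**
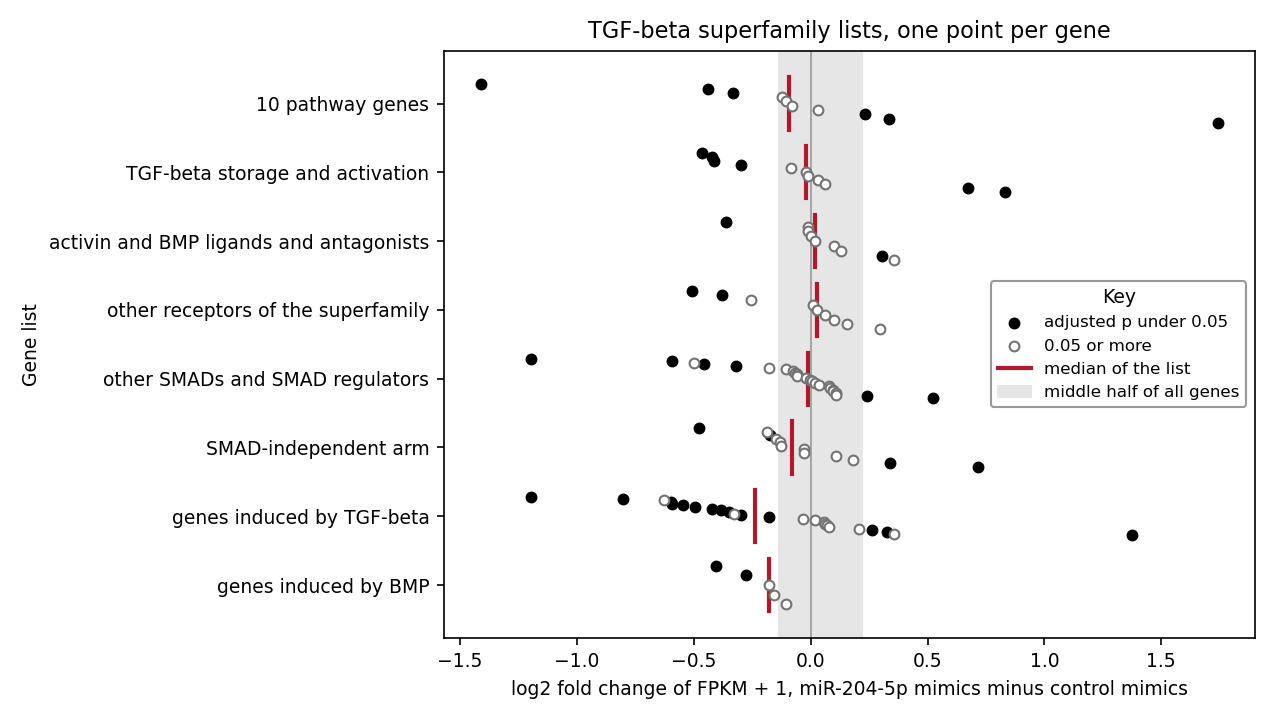
Log2 fold change, mimics minus control, of every gene of the 7 wider lists and the 10 genes, with the list median as a red line, genes past limma's threshold filled, and the range between the quartiles of all genes shaded. The median of the 24 genes induced by TGF-beta is −0.24 and that of the 5 genes induced by BMP is −0.18. Those of the other lists lie between −0.09 and 0.03.

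RNA levels alone were measured, so neither receptor protein nor SMAD phosphorylation can be read from them. With 3 libraries a group, a single gene tested by itself could reach no p below 0.1 in an exact permutation test, and the calls rest on the spread that limma shares across genes.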

How the data were processed

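RNA of 6 UM-SCC1 cultures, 3 a group, was sequenced. The authors deposited 1 table of FPKM per gene for the 6 libraries, aligned with HISAT2 and assembled with StringTie on hg38 according to the submitters' processing notes; versions are not given in the sources used here. The table also holds the authors' fold changes and p-values, which were not used. It lists 1 transcript per gene; 14946 of 14959 listed transcripts are in GENCODE 29.

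FPKM values were transformed to log2(FPKM + 1), and limma 3.58.1 in R 4.3.3 (eBayes with trend, two-sided) was fitted to all 14959 genes with no low-value filter; Benjamini-Hochberg adjusted p below 0.05 was called. The values are no counts, so the count test named in the methods was not run. The script was tested on simulated data. Groups came from the labels. The members and lists were chosen with earlier results of these data known. All members are named, and from each wider list up to 4 called genes of at least 1 FPKM and no overlap, those with the largest change. Seed matches were read from the 3′UTRs of protein-coding transcripts with Python 3.11.15. The alternatives tried were 0.1 as pseudocount, a filter at a mean of 1 FPKM, 3 other scalings, a replicate block and leaving out each library.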

Additional observations from a re-analysis of the deposited data

How the results depend on the processing

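TGFB2, TGFBR1, TGFBR2 and TGFBI kept their direction and call in 12 of 12 alternatives and TGFBR3 in 11 of 11, since a mean of at least 1 FPKM leaves it and SMAD2 out. Leaving out single libraries gave log2 fold changes of 1.70 to 1.77 for TGFB2, −1.45 to −1.36 for TGFBR2, −0.48 to −0.40 for TGFBR1, −0.41 to −0.26 for TGFBI and 0.28 to 0.39 for TGFBR3. The uncalled values changed sign for SMAD2 (−0.036 by quantile normalization, −0.025 to 0.087 over single libraries left out) and SMAD4 (−0.20 to 0.12); the cause was not tested. Of 382 values for 32 named genes, 352 kept direction and call, 25 lost it, 1 gained it and 4 reversed. Over single libraries left out, calls numbered 2 to 3 in the SMAD-independent arm, 1 to 2 among activin and BMP ligands and 2 to 4 among the other receptors. The SMAD-independent arm gave 6 calls by scaling to equal medians, and 5 by equal sums, quantile normalization or the filter. Activin and BMP ligands gave 1 call by quantile normalization, by scaling to equal medians or equal sums, and with the replicate block. Members with a seed match numbered 2 of 10 in the 3′UTRs of the listed transcripts. Same-numbered libraries did not deviate together (correlations −0.0401, −0.021 and −0.108), so the numbers were not taken as pairs; the replicate block gave 5096 calls over all genes against 6098, and 4971 to 5371 were called with 1 library left out. The lower share of calls was 41.3%, and 48.7%, 48.4% and 49.9% with equal medians, equal sums and quantile normalization. Depth was inferred and not given, so levels below 1 FPKM are the least certain.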
